A study of Homo sapiens with 48 samples.

Results

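The comparison of E797R with wild-type UPF1 under siUPF1 rested on 6 of the 48 libraries of the series, the 3 from E797R cells and the 3 from WT cells that had received the siRNA against UPF1. They were taken by their labelled line and siRNA, and no measured value entered the choice. E797R cells came from Flp-In 293 T-REx, a derivative of human embryonic kidney cells with a docking site for a transgene, and stably expressed CLIP-tagged UPF1 carrying the E797R change. WT cells were the same parent line expressing CLIP-tagged wild-type UPF1, CLIP cells carried the CLIP tag alone, and the other 5 lines expressed CLIP-tagged mutants labelled F192E, I757R, FE-ER, IR-ER and LECY. The meaning of the labels FE-ER, IR-ER and LECY was not spelled out, and they are used as names. All groups were transfected with 40 nM siRNA, either siUPF1 or a non-targeting siRNA (siNT), and harvested after 72 h, with 3 replicates per group that the study's design text calls biological. The sources used here do not give the number of clones behind a line, the siRNA sequences or any inducer of the transgene. Each construct was in its own line, so the E797R change and other differences between the lines cannot be told apart.

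UPF1 is an ATP-driven RNA helicase at the centre of nonsense-mediated decay (NMD), the pathway that degrades mRNAs whose translation stops at a premature stop codon and also sets the level of a number of normal mRNAs. UPF2 and UPF3B connect UPF1 to exon junction complexes left on spliced mRNA, and the kinase SMG1 phosphorylates UPF1 before decay starts. Several genes of the NMD factors are themselves NMD targets, so their mRNAs rise when the pathway is weakened. The series title asks how the ATPase of UPF1 is restrained and activated, and the E797R line was compared with WT where endogenous UPF1 was targeted by siRNA.

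The changed residue is placed by the reference coding sequence, shown here because the label gives a position but no transcript. In transcript ENST00000262803.9, which has 1118 codons, the codon at the E797R position is GAG, a glutamate codon, in exon 17 of 24 on the plus strand of chromosome 19. The stretch at chr19:18860884-18860946 (GRCh38, GENCODE 29) reads 5′ to 3′ as follows, with that codon in capitals.
UPF1 codon of E797R: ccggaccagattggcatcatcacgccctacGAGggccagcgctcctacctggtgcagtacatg
In transcript ENST00000599848.5, which has 1129 codons, the codon of the same number is AAG and not a glutamate codon, so the label matches the numbering of the shorter transcript.

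UPF1 RNA (chromosome 19, 18831938 to 18868236, plus strand, hg38) was measured at 4296, 4140 and 4349 CPM (counts scaled to the library size) in E797R cells under siUPF1, against 4982, 4345 and 4218 CPM in WT cells. The libraries overlapped. The means were 4262 ± 109 CPM in E797R and 4515 ± 409 CPM in WT (SD, n = 3 each), a log2 difference of −0.08 (SE 0.11, edgeR quasi-likelihood adjusted p = 0.997). An interval of 2 SE on either side ran from −0.31 to 0.14. An exact two-sided permutation test over the 6 libraries gave p = 0.5, where 0.1 is the smallest p that this design allows. CLIP cells held 20.4 ± 0.916 CPM under siUPF1 and 106 ± 7.45 CPM under siNT (n = 3 each). Under siNT E797R cells held 4302 ± 730 CPM and WT cells 4059 ± 379 CPM (n = 3 each). UPF1 RNA in both lines was thus far above that of CLIP cells under either siRNA. Reads of the transgene and of endogenous UPF1 were summed at this gene, so the loss of endogenous UPF1 in E797R and WT cells could not be read from it.

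Across the transcriptome the E797R and WT lines differed in few genes under siUPF1, and those that passed the test were lower in E797R. Of 16697 genes tested, 0 were higher and 8 were lower in E797R at an adjusted p under 0.05 (edgeR quasi-likelihood test with Benjamini-Hochberg adjustment; 0.0479% called). At an unadjusted p under 0.05, 314 genes were higher and 485 lower. The 8 were UPF3B, DDX49, C1orf198, NGRN, SLC25A11, CDKN2A, YIPF2 and ALDH1A2. In each of them the 3 E797R libraries lay below the 3 WT libraries, an arrangement that 3.67% of all genes tested showed. With the replicate number as a block in the same fit, 6 genes were higher and 74 lower in E797R (0.479% called), and the 8 were among the 74. Of these 80 genes, 72 had E797R and WT libraries that did not overlap. The same libraries chose the 80 genes, so this count gives no separate support. The 3.67% above covers only genes lower in E797R. When the model was fitted on these 6 libraries alone, 0 genes were called and 502 had an unadjusted p under 0.05, and DESeq2 on all libraries called 25. The count was 4 without E797R replicate 3, 15 without E797R replicate 2 and 18 without WT replicate 3. UPF3B, C1orf198 and NGRN were called whichever of the 6 libraries was left out.

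**Figure D1:**
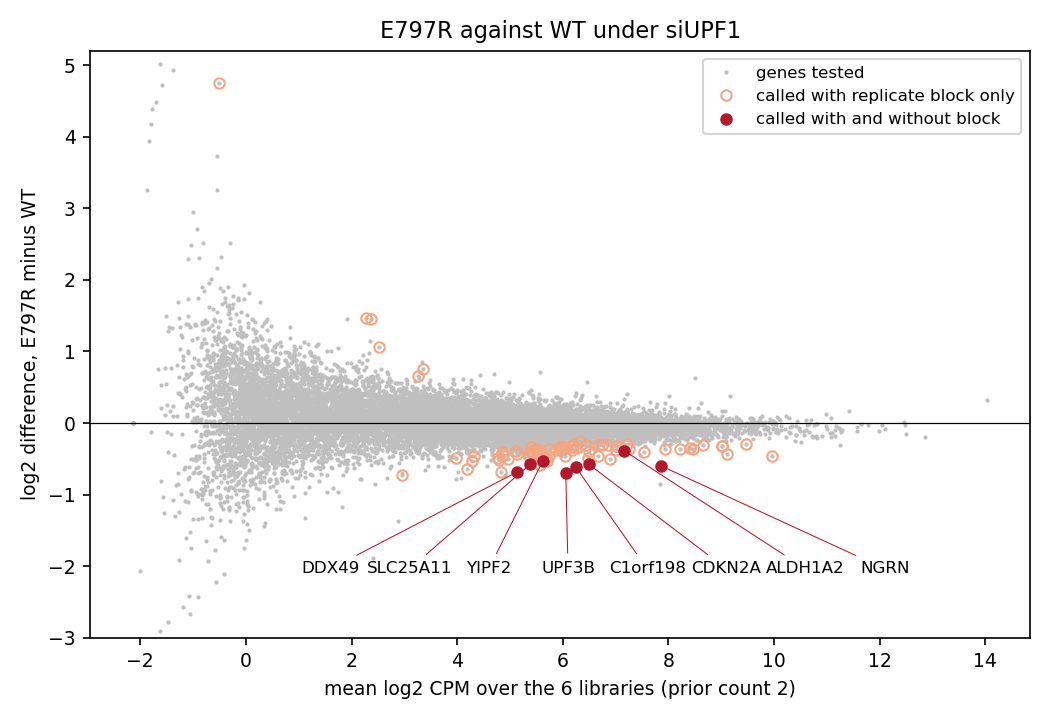
Mean log2 CPM over the 6 libraries (horizontal axis) against the log2 difference of E797R minus WT under siUPF1 (vertical axis, drawn from −3 to 5.2, with 17 genes outside it), one grey point per gene tested. The 8 filled genes, called with and without the replicate block, lie between −0.69 and −0.38, and most of the open circles, genes called with the block alone, also lie below 0.

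UPF3B, the NMD factor that links UPF2 to the exon junction complex, had the largest difference of the 8. Its gene lies on chromosome X, 119805311 to 119852998, minus strand. It was measured at 50.7, 56.5 and 49.6 CPM in E797R under siUPF1, against 88.9, 81.1 and 83.2 CPM in WT. The E797R libraries were close to each other and well below every WT library. UPF3B was thus at 61.8% of its WT level (log2 difference −0.69, SE 0.11, adjusted p = 0.0021). Without siRNA against UPF1 the gap was also present: under siNT UPF3B stood at 52.2, 66.7 and 59.98 CPM in E797R and at 88.7, 94.3 and 88.2 CPM in WT (log2 difference −0.60, SE 0.11, adjusted p = 0.0348). In CLIP cells UPF3B rose with the knockdown, with 180 ± 9.63 CPM under siUPF1 and 103 ± 8.61 CPM under siNT (n = 3 each; log2 change 0.81, SE 0.11, adjusted p = 1.6e-07).

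NGRN, which encodes a mitochondrial protein needed for the mitochondrial ribosome (chromosome 15, 90265659 to 90278141, plus strand), followed the same arrangement at a higher level. Its values under siUPF1 were 186, 184 and 194 CPM in E797R, against 296, 289 and 269 CPM in WT, a log2 difference of −0.60 (SE 0.09, adjusted p = 4.66e-04). Under siNT they were 158, 164 and 160 CPM in E797R, against 242, 235 and 195 CPM in WT (log2 difference −0.48, SE 0.09, adjusted p = 0.0348). The E797R and WT libraries did not overlap under either siRNA. NGRN rose by a log2 change of 1.04 with siUPF1 in CLIP cells (SE 0.09, adjusted p = 5.19e-12).

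C1orf198, a gene of little known function (chromosome 1, 230837119 to 230869589, minus strand), had the smallest p of all genes tested. It was measured at 60.2, 60.7 and 62.9 CPM in E797R under siUPF1, against 97.4, 91.6 and 93.5 CPM in WT (log2 difference −0.62, SE 0.08, adjusted p = 1.21e-05). Under siNT the lines were closer, with 55.6, 49.9 and 59.4 CPM in E797R and 62.2, 57.6 and 63.4 CPM in WT (log2 difference −0.15, SE 0.08, adjusted p = 1), and their libraries overlapped. C1orf198 changed little with siUPF1 in E797R (log2 change 0.16, adjusted p = 0.18), rose in WT (0.63, adjusted p = 1.3e-07) and rose in CLIP (0.98, adjusted p = 3.19e-13). The difference between the changes in E797R and WT was −0.47 (SE 0.11, unadjusted p = 1.14e-04) and did not pass after adjustment (adjusted p = 0.955).

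DDX49, a DEAD-box RNA helicase gene (chromosome 19, 18919675 to 18928633, plus strand), was measured at 28.2, 34.9 and 21.5 CPM in E797R under siUPF1, against 48.9, 49.6 and 36.2 CPM in WT. The highest E797R library and the lowest WT library were close together, and the log2 difference was −0.68 (SE 0.13, adjusted p = 0.0148). Under siNT the lines did not differ by more than their spread, with 39.6 ± 1.72 CPM in E797R and 39.4 ± 5.65 CPM in WT (n = 3 each; log2 difference 0.01, adjusted p = 1). DDX49 fell with siUPF1 in E797R (log2 change −0.51, adjusted p = 0.0058) and had a log2 change of 0.19 in WT (adjusted p = 0.37). The test of the difference between these changes gave −0.69 (SE 0.18, adjusted p = 1). The DDX49 call under siUPF1 was lost without E797R replicate 1 or 3, and without WT replicate 1 or 2.

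YIPF2, which encodes a Golgi membrane protein (chromosome 19, 10922185 to 10928681, minus strand), had 40.6, 43.6 and 38.7 CPM in E797R under siUPF1, against 66.5, 54.5 and 55.8 CPM in WT (log2 difference −0.53, SE 0.09, adjusted p = 0.00504). Of the 8 genes it rose most with siUPF1 in CLIP cells, by a log2 change of 1.38 (SE 0.09, adjusted p = 8.81e-15). ALDH1A2, the gene of a retinaldehyde dehydrogenase that makes retinoic acid (chromosome 15, 57953424 to 58497866, minus strand), had 126, 131 and 118 CPM in E797R, against 163, 161 and 165 CPM in WT (log2 difference −0.38, SE 0.07, adjusted p = 0.00665). It rose by 0.34 in CLIP cells (SE 0.07, adjusted p = 2.02e-04). The YIPF2 and ALDH1A2 libraries of the lines did not overlap under siUPF1, and the YIPF2 call was lost without E797R replicate 3 or WT replicate 1, the ALDH1A2 call without E797R replicate 3.

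The remaining genes of the 8 were not among those that responded to siUPF1 in CLIP cells. SLC25A11, the mitochondrial carrier that exchanges oxoglutarate and malate (chromosome 17, 4937130 to 4940251, minus strand), had 34.1, 36.7 and 31.1 CPM in E797R under siUPF1, against 52.0, 47.9 and 51.8 CPM in WT (log2 difference −0.58, SE 0.10, adjusted p = 0.00322). CDKN2A, which encodes a cyclin-dependent kinase inhibitor and the p53 regulator ARF (chromosome 9, 21967753 to 21995301, minus strand), had 81.8, 69.7 and 69.6 CPM in E797R, against 117, 111 and 102 CPM in WT (log2 difference −0.58, SE 0.10, adjusted p = 0.00377). All E797R libraries lay below all WT libraries for both genes. In CLIP cells their knockdown changes were 0.15 (SE 0.09, adjusted p = 0.225) for SLC25A11 and 0.15 (SE 0.10, adjusted p = 0.244) for CDKN2A. Both calls were lost without E797R replicate 3.

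**Figure D2:**
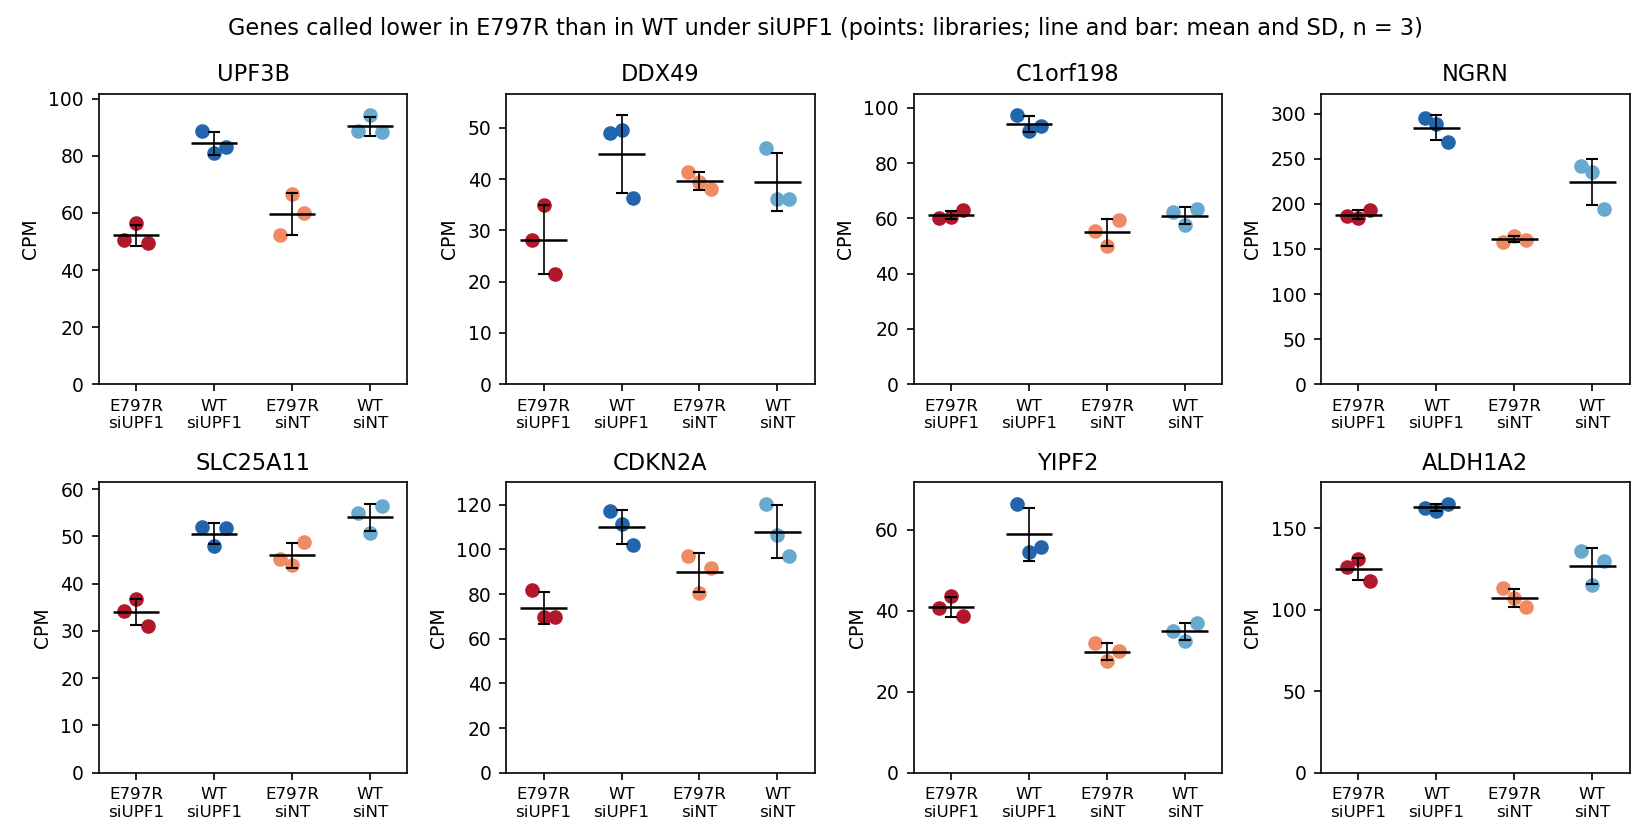
CPM of the 8 genes called lower in E797R than in WT under siUPF1, in E797R and WT cells under siUPF1 and siNT, with one point per library and the mean and SD of 3. Under siUPF1 the E797R points lie below the WT points in every panel, and for UPF3B, NGRN, SLC25A11, YIPF2 and ALDH1A2 they also do so under siNT.

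The knockdown in CLIP cells used libraries outside the contrast of E797R with WT, although these shared its gene filter and estimate of spread. In that knockdown 6 of the 8 genes rose with siUPF1 and 0 fell. Among all genes tested 18.1% rose and 15.6% fell there, and with the block in the CLIP comparison too 23.5% rose and 22.2% fell, while the count for the 8 stayed at 6. Of the 74 genes lower in E797R with the replicate block, 33 rose in CLIP cells (44.6%) and 4 fell (5.41%), or 36 (48.6%) and 10 (13.5%) with the block in both comparisons. These shares were not matched for level: the median log2 CPM was 6.43 for the 8 genes and 6.11 for the 74, against 4.29 for all genes. All 74 were protein coding, as were 79.8% of all genes tested. The siNT libraries were likewise in the fit but not in the contrast. Under siNT the E797R value was below the WT value for 7 of the 8 genes (87.5%) and for 70 of the 74 (94.6%). Among all genes it was below for 49.3%.

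The genes that the replicate block added were named after their values were seen. The largest fall among them was that of TMEM51, a transmembrane protein gene of little known function, with 5.83, 4.69 and 7.04 CPM in E797R, against 9.76, 9.71 and 10.1 CPM in WT (log2 difference −0.73, adjusted p = 0.0174 with the block, 0.125 without). Under siNT TMEM51 lay the other way, with 9.20, 7.61 and 9.40 CPM in E797R, against 5.09, 6.60 and 7.09 CPM in WT (log2 difference 0.47, adjusted p = 0.434 with the block, 1 without). The E797R and WT libraries of TMEM51 did not overlap under either siRNA. The next largest falls were those of PHF5A, a subunit of the SF3b splicing complex, and URM1, a ubiquitin-like protein used to modify transfer RNA. PHF5A had 26.9, 21.6 and 18.7 CPM in E797R, against 35.5, 39.3 and 33.2 CPM in WT (log2 difference −0.67, adjusted p = 9.65e-04 with the block, 0.0939 without). URM1 had 14.4, 17.1 and 12.5 CPM in E797R, against 27.0, 21.6 and 19.4 CPM in WT (−0.64, adjusted p = 0.0174 with the block, 0.154 without). The libraries of E797R and WT did not overlap for either gene. MRPS12, a protein of the mitochondrial ribosome, was at 39.9 ± 4.86 CPM in E797R and 57.1 ± 4.72 CPM in WT (−0.52, adjusted p = 0.00335 with the block). CHCHD3, part of the complex that shapes mitochondrial cristae, had 99.7 ± 11.1 CPM in E797R and 141 ± 12.9 CPM in WT (−0.50, adjusted p = 2.19e-04 with the block), and it rose by 0.58 with siUPF1 in CLIP cells (adjusted p = 4.56e-05). The lysosomal chloride exchanger gene CLCN7 (−0.59, adjusted p = 0.00338 with the block) and the small GTPase gene RIT1 (−0.48, adjusted p = 0.0127 with the block) were lower in E797R as well. Both rose in CLIP cells, by log2 changes of 1.23 for CLCN7 (adjusted p = 5.54e-07) and 1.10 for RIT1 (adjusted p = 3.74e-07).

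The 6 genes higher in E797R with the block (0.0359% called) were CCDC9B, CEBPE, FHAD1, IGFN1, NOL4L and VAV1, all at low levels. Under siUPF1 WT had the lowest mean of all lines for CCDC9B, FHAD1, NOL4L and VAV1, but not for CEBPE and IGFN1. IR-ER was near E797R for FHAD1 (9.04 ± 3.64 CPM, against 8.52 ± 4.92 in E797R) and IGFN1 (7.34 ± 1.72, against 8.39 ± 2.80). The same held for VAV1 (7.20 ± 1.17 CPM in IR-ER, against 8.08 ± 4.02 in E797R). VAV1, a guanine nucleotide exchange factor of blood cells, had 6.57, 5.03 and 12.6 CPM in E797R, against 3.66, 1.72 and 3.39 CPM in WT (log2 difference 1.44, adjusted p = 9.65e-04 with the block, 0.0989 without). The E797R libraries all lay above the WT libraries, with replicate 3 the highest. CEBPE, a transcription factor gene of granulocytes, had 17, 9 and 13 counts in the E797R libraries and 0, 1 and 0 counts in the WT libraries. Under siNT CEBPE had 33, 7 and 6 counts in E797R and 0 in each WT library, so the lines were separated under both siRNAs. CEBPE was higher still in CLIP cells, at 4.13 ± 1.11 CPM under siUPF1, against 1.59 ± 0.188 in E797R and 0.0522 ± 0.0904 in WT (SD, n = 3 each), and under siNT it averaged 5.86 ± 2.30 CPM in CLIP. Its means in the other 5 mutants under siUPF1 ran between 0 in FE-ER and IR-ER and 0.307 CPM in LECY. Its adjusted p was 0.0402 with the block under siUPF1 and 0.135 without it.

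E797R had the lowest mean of the 8 lines under siUPF1 for all 8 genes, and IR-ER had the next lowest mean for 7 of them, all but UPF3B. These comparisons share the 3 E797R libraries with the comparison that chose the genes and are given as levels. UPF3B was at 52.3 ± 3.69 CPM in E797R, 94.1 ± 19.6 in IR-ER, 120 ± 11.2 in FE-ER, 123 ± 8.39 in I757R, 179 ± 30.9 in F192E, 185 ± 5.10 in LECY, 84.4 ± 4.02 in WT and 180 ± 9.63 CPM in CLIP cells (SD, n = 3 each). Neighbours in this order overlapped within their spread, namely WT and IR-ER, FE-ER and I757R, and F192E, CLIP and LECY. Under siNT UPF3B was at 59.6 ± 7.29 CPM in E797R, while the means of the other mutants, WT and CLIP lay between 90.4 and 105 CPM. C1orf198 had 61.3 ± 1.46 CPM in E797R and 63.0 ± 2.61 CPM in IR-ER (n = 3 each), which overlapped, and 79.0 ± 1.78 CPM in FE-ER. NGRN had 188 ± 4.96 CPM in E797R and 250 ± 15.2 CPM in IR-ER, and CLIP cells had the highest mean, 442 ± 18.8 CPM.

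**Figure D3:**
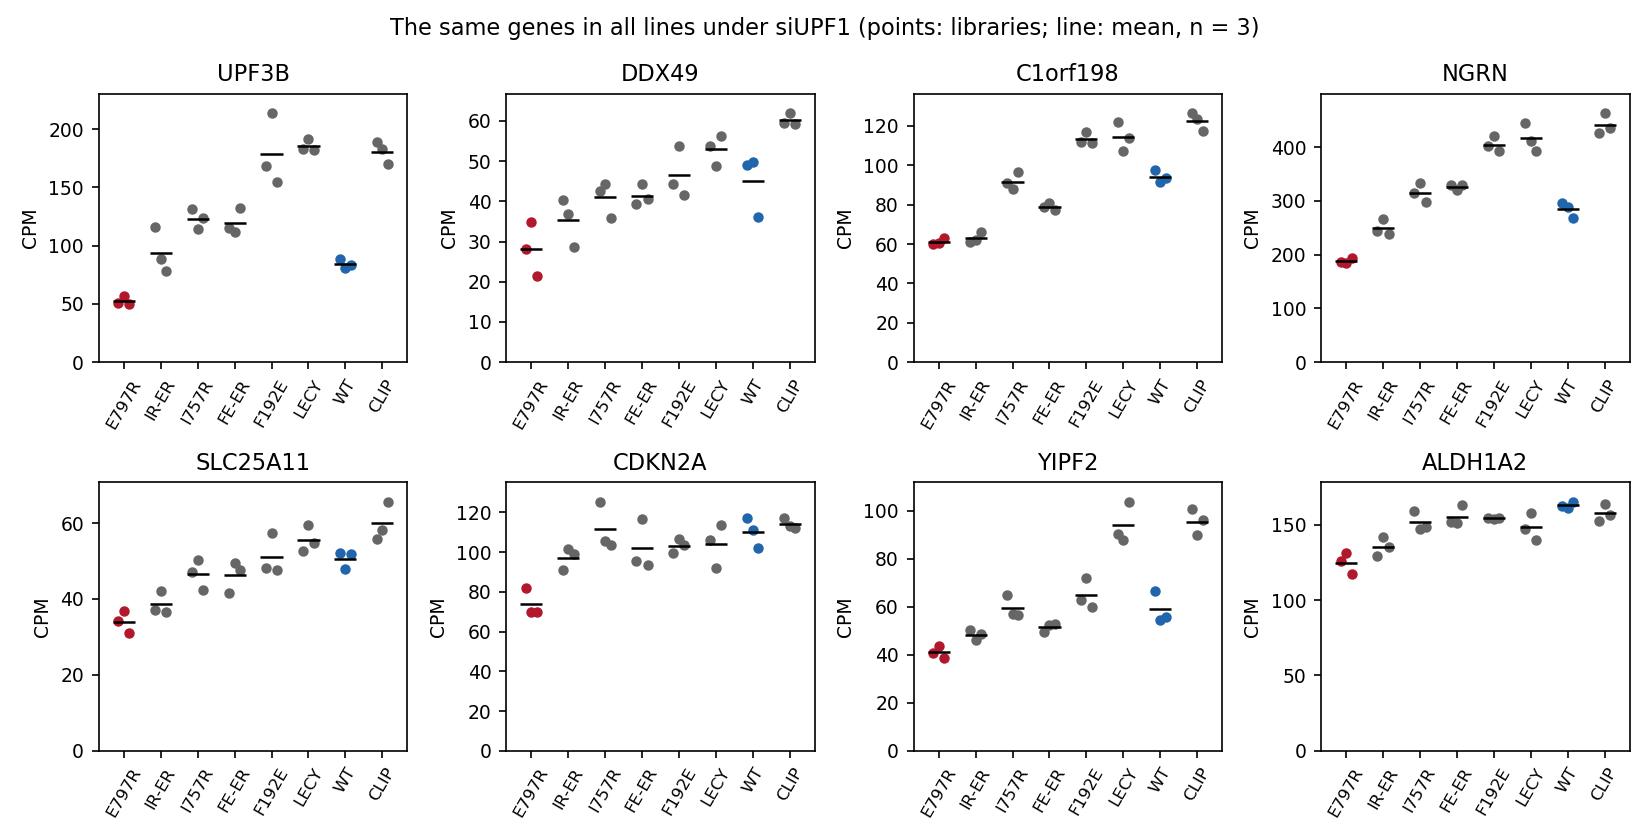
CPM under siUPF1 of the 8 genes in all 8 lines, one point per library and a line at the mean of 3. E797R has the lowest mean in each panel, and IR-ER lies next to it except for UPF3B, where WT does.

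Counted over all genes by the model without the replicate block, the fewest calls between E797R under siUPF1 and another line were those against WT, with 8 genes lower and 0 higher. Against IR-ER 17 genes were lower (0.102% of genes tested) and 3 higher in E797R, against I757R 41 (0.246%) and 2, and against FE-ER 126 (0.755%) and 20. Against F192E 460 genes were lower (2.75%) and 107 higher, against LECY 1608 (9.63%) and 1034, and against CLIP 1823 (10.9%) and 1262 (7.56%). With the block, a fit run for the other mutants after the data were seen, the totals were 80 against WT, 94 against IR-ER, 245 against I757R, 605 against FE-ER, 1605 against F192E, 4669 against LECY and 5188 against CLIP (2700 lower and 2488 higher). WT and IR-ER were thus close in number, and no test of the difference between these counts was made. All of the counts share the E797R libraries.

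The genes that respond to siUPF1 were defined in CLIP cells, as called and at least 1.5-fold changed. This gave 1571 raised (9.41% of genes tested) and 1447 lowered genes (8.67%). Responses to loss of UPF1 and other effects of the siRNA were not separated in these sets. The CLIP libraries chose the genes, so the distance of CLIP from E797R and WT in them is partly set by that choice. That distance, and counts of calls against CLIP within the sets, give no separate support. Under siUPF1, 723 of the raised genes were called lower in WT than in CLIP, and 754 were called lower in E797R. Of the lowered genes, 292 were called higher in WT than in CLIP, and 407 were called higher in E797R. Among all 16697 genes tested, 1437 were lower and 910 higher in WT than in CLIP. For E797R these counts were 1823 and 1262. The raised genes had nearly the same level in both lines under siUPF1. Their mean log2 CPM was 4.45, 4.42 and 4.50 in the E797R libraries, against 4.51, 4.40 and 4.44 in the WT libraries and 4.98, 4.90 and 4.99 in the CLIP libraries. E797R and WT overlapped and were both below CLIP, and the difference of the means, 0.01, was smaller than the spread of 0.066 from the SDs of both lines. The median log2 difference of E797R minus WT over the raised genes was −0.01, against 0.00 over all genes tested, with 5 genes called lower (0.318%) and 0 called higher. With the block 16 were called lower (1.02%, against 0.443% of all genes) and 1 higher.

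The lowered genes had mean log2 CPM of 3.05, 3.05 and 3.19 in the E797R libraries under siUPF1, against 2.95, 2.99 and 3.14 in WT and 2.68, 2.70 and 2.65 in CLIP. The difference of the means, 0.07, was smaller than the spread of 0.128 from the SDs of both lines, and the libraries overlapped. Within same-numbered libraries, however, E797R was above WT in 3 of 3, by 0.09, 0.06 and 0.05 under siUPF1 and by 0.08, 0.04 and 0.02 under siNT. For the raised genes the same differences were −0.06, 0.02 and 0.06 under siUPF1. Under siNT they were −0.0035, 0.03 and 0.11, so the sign was mixed under both siRNAs. Median differences over all genes also varied with level, as given below, and the part of level in the set differences was not tested. The median log2 difference over the lowered genes was 0.04 and 0 of them were called (0 higher and 1 lower with the block), with 31 higher and 14 lower at an unadjusted p under 0.05. Within each line, the median change with siUPF1 over the raised genes was 0.35 in E797R, 0.39 in WT and 0.87 in CLIP. Over the lowered genes it was −0.51 in E797R, −0.54 in WT and −0.94 in CLIP. The CLIP changes are those by which the genes were chosen. In the other 5 mutants the mean log2 CPM of the raised genes under siUPF1 ran between 4.58 in I757R and 4.90 in LECY.

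**Figure D4:**
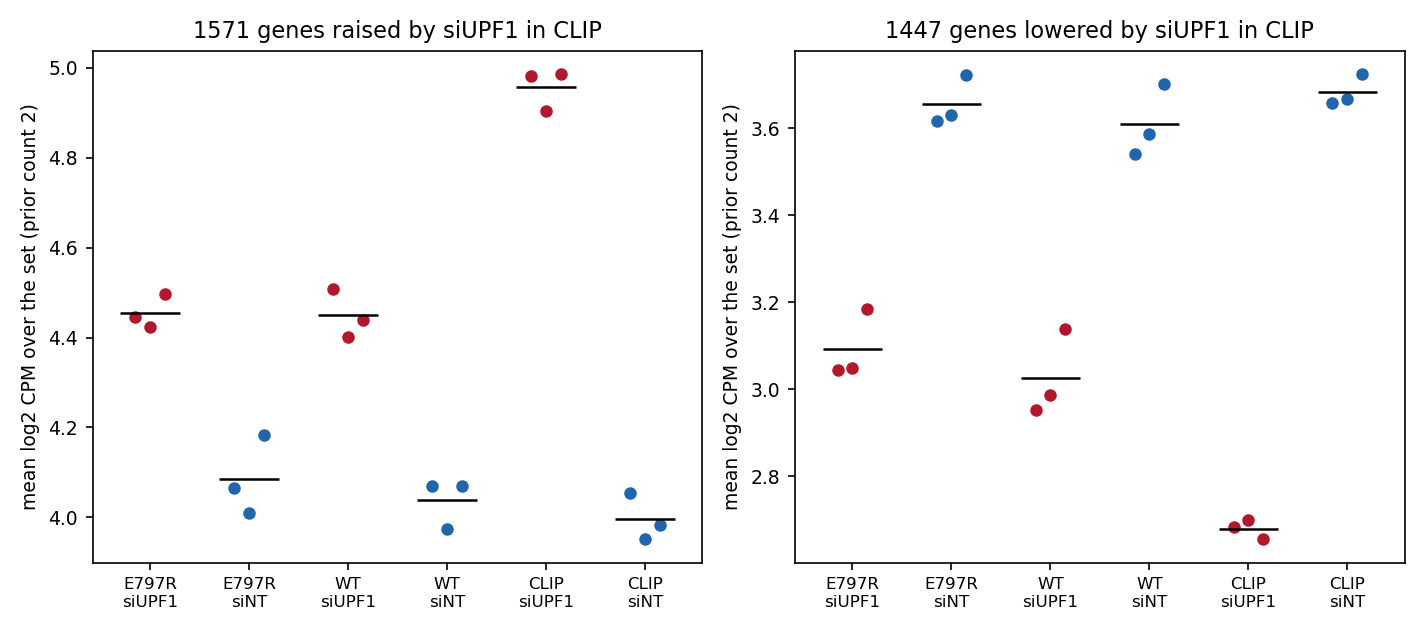
Mean log2 CPM (prior count 2) over the genes raised (left) and lowered (right) by siUPF1 in CLIP cells, one point per library and a line at the mean of 3, for E797R, WT and CLIP under siUPF1 (red) and siNT (blue). Under siUPF1 the E797R and WT points overlap in both panels and lie apart from CLIP, whose libraries chose the genes. The vertical axes do not start at 0.

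None of the 10 genes with the largest responses in CLIP cells was called between E797R and WT. FADS2, a fatty acid desaturase gene that fell in CLIP cells by a log2 change of −3.87 (SE 0.31, adjusted p = 2.21e-12), had 9.97, 10.9 and 10.5 CPM in E797R under siUPF1, against 9.08, 6.11 and 12.1 CPM in WT (log2 difference 0.18, SE 0.30, adjusted p = 0.997). With siUPF1 FADS2 also fell within E797R (log2 change −2.21) and within WT (−2.14). The other 4 most lowered genes, ADCYAP1R1, AQP3, HTR6 and SYNC, averaged no more than 0.775 CPM in E797R and 1.02 CPM in WT. Of these only HTR6, a serotonin receptor gene, had CPM values that did not overlap (adjusted p = 0.997). They were 0.424, 0.335 and 0.447 CPM in E797R, against 0, 0.157 and 0.242 CPM in WT. The HTR6 counts behind them, 4, 2 and 4 in E797R and 0, 1 and 2 in WT, met at 2. Of the 5 most raised, the pseudogene AC005077.4 had 3.30 ± 0.914 CPM in E797R and 2.81 ± 1.98 CPM in WT (n = 3 each; log2 difference 0.19, SE 0.46, adjusted p = 0.997). RPL23AP47 was at 0 in all 6 libraries, AC104472.3 at 0 in the E797R libraries, and CU633906.1 overlapped between the lines. The antisense RNA U62317.2 had 0.212, 0 and 0.335 CPM in E797R, against 0.813, 0.94 and 1.21 CPM in WT, which did not overlap (log2 difference −2.22, SE 1.26, adjusted p = 0.997).

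UPF3B was the only gene called of 20 NMD factors tested, whose median log2 difference was −0.07, and of 13 genes of the exon junction complex and its partners (median −0.10). The difference was negative for 15 of the 20 and for all of the 13, beside 49.1% of all genes tested. UPF3A, the paralog of UPF3B, had 121 ± 5.00 CPM in E797R and 119 ± 10.8 CPM in WT (n = 3 each; log2 difference 0.02, SE 0.09, adjusted p = 0.997). UPF2 had 93.3 ± 16.2 CPM in E797R and 107 ± 11.2 CPM in WT (−0.20, SE 0.13, adjusted p = 0.997), and SMG1 had 376 ± 13.9 CPM in E797R and 398 ± 33.4 CPM in WT (−0.08, SE 0.09, adjusted p = 0.997). Of 40 established NMD targets 0 were called, with a median of −0.07 and a negative difference for 28. With siUPF1 in CLIP cells 24 of these targets rose and 5 fell, where 18.1% of all genes tested rose and 15.6% fell. GADD45A, a growth arrest gene, had 30.1 ± 6.99 CPM in E797R and 34.7 ± 3.45 CPM in WT (−0.20, adjusted p = 0.997). ZFAS1, a snoRNA host RNA, had 25.02 ± 6.03 CPM in E797R and 31.2 ± 6.00 CPM in WT (−0.31, adjusted p = 0.997). TNFRSF10B, a death receptor, had the smallest p of the targets and of 25 p53 targets (0 called, median −0.08), with 69.5 ± 6.24 CPM in E797R and 79.5 ± 11.2 CPM in WT (−0.19, adjusted p = 0.997). TNFRSF10B was among the targets that fell with siUPF1 in CLIP cells (log2 change −0.24, SE 0.09, adjusted p = 0.0437).

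Of the lists of other RNA pathways, 0 genes were called among 27 snoRNA host genes (median −0.01), 42 splicing factors with poison exons (−0.06), 32 mRNA decay enzymes (−0.04) and 70 cytosolic ribosomal proteins (−0.01). NOP56, a core protein of box C/D snoRNPs, was called with the block, at 464 ± 43.2 CPM in E797R and 581 ± 74.0 CPM in WT (n = 3 each; adjusted p = 0.00639 with the block, 0.241 without). The NOP56 mean under siUPF1 was highest in WT, and in the lines other than E797R and WT it ran between 446 CPM in IR-ER and 565 CPM in LECY. In these lists the smallest p belonged to SNRPB, a spliceosome protein (194, 194 and 165 CPM in E797R, against 224, 242 and 193 in WT), CNOT8, a deadenylase (42.5 ± 2.88 in E797R and 47.3 ± 1.27 in WT), and RPS9 (190, 155 and 151 CPM in E797R, against 195, 180 and 174 in WT), none of them called.

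Stress and metabolic lists held no called gene either. Median log2 differences were −0.01 over 41 ATF4 stress response genes, −0.05 over 23 unfolded protein response genes, −0.11 over 15 heat shock genes, 0.11 over 18 interferon response genes and 0.12 over 22 immediate early genes. The amino acid transporter SLC1A5 had 300, 317 and 283 CPM in E797R, against 383, 357 and 318 CPM in WT (adjusted p = 0.448), and its highest E797R and lowest WT values nearly met. MANF and DNAJB1, secreted and cytosolic chaperone genes, overlapped between the lines, as did the interferon-induced MX1. FOSL1, an AP-1 subunit, had 1.45 ± 0.313 CPM in E797R and 2.31 ± 0.355 CPM in WT (adjusted p = 0.989). Cholesterol and fatty acid synthesis genes (25 tested, median 0.06) were led by HMGCS1, an early enzyme of sterol synthesis, at 167, 158 and 192.4 CPM in E797R, against 105, 138 and 151 CPM in WT (log2 difference 0.40, SE 0.14, adjusted p = 0.699). Of 24 glycolysis and hypoxia genes (median −0.09), PKM and PGAM1, both enzymes of lower glycolysis, were called with the block. PKM had 952, 949 and 679 CPM in E797R, against 1382, 1185 and 985 CPM in WT (log2 difference −0.46, adjusted p = 0.00386 with the block, 0.269 without). WT had the highest PKM mean of all lines under siUPF1, 1184 ± 199 CPM, against 860 ± 157 CPM in E797R. In the remaining lines the mean ran between 858 CPM in LECY and 995 CPM in FE-ER, so the low level was not particular to E797R. The 32 nuclear genes of the respiratory chain had a median of −0.05, with CYC1 at 46.5 ± 4.69 CPM in E797R and 55.5 ± 6.06 CPM in WT.

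Growth lists were also without calls, with medians of −0.07 over 25 cell division genes and −0.11 over 25 DNA replication genes. The mitotic kinase gene PLK1 had 170 ± 16.3 CPM in E797R and 201 ± 34.2 CPM in WT, and the primase gene PRIM1 had 34.4 ± 1.97 CPM in E797R and 28.2 ± 0.184 CPM in WT (adjusted p = 0.726). Replication-dependent histones had a median of −0.23 and 22 of the 23 tested had a negative difference, beside 49.1% of all genes tested. HIST1H3A, which had the smallest p of them, was at 5.51, 5.53 and 3.35 CPM in E797R, against 8.54, 9.87 and 6.06 CPM in WT (log2 difference −0.76, SE 0.28, adjusted p = 0.745). The structural RNAs, read as a sign of RNA quality and given below, had the same sign, and their part in the histone values was not tested. WT had the highest HIST1H3A mean of all lines under siUPF1, 8.15 CPM. In the lines other than E797R and WT it ran between 3.98 CPM in CLIP and 4.96 CPM in IR-ER. The E797R mean lay within that range, so the low HIST1H3A level was not particular to E797R.

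**Figure D5:**
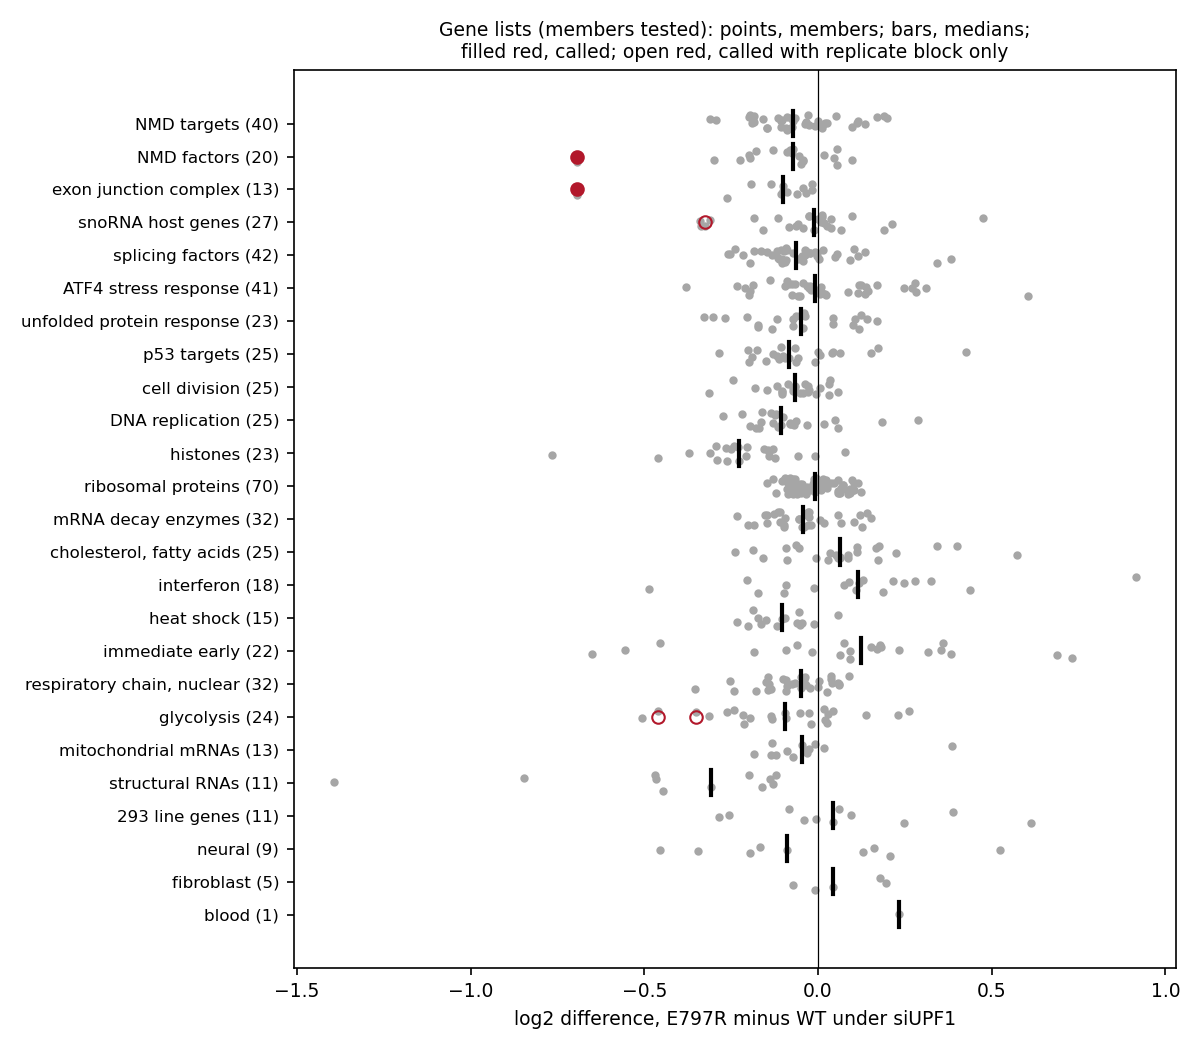
Log2 difference of E797R minus WT under siUPF1 for the members of each gene list, with the number tested in brackets, grey points for members and a black bar at the median. UPF3B is the one filled red point, in the NMD factor and exon junction complex rows, and the open red circles are NOP56, PGAM1 and PKM.

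Measures of RNA quality and cell identity were read beside these results. The 6 libraries held 6016999 to 9579307 expected counts, the lowest being E797R replicate 2, and all 48 held 6016999 to 14551820. The 11 structural RNAs tested all had negative differences (median −0.31), and the sum of the 13 listed was 12322 to 15273 CPM in E797R and 15054 to 17245 CPM in WT, ranges that overlapped. By replicate number the sums were 15273, 13592 and 12322 CPM in E797R, against 15601, 17245 and 15054 CPM in WT. Under siNT they were 14710, 16297 and 13958 CPM in E797R, against 16903, 17671 and 16095 CPM in WT. E797R was thus below WT at each replicate number under both siRNAs. TERC, which had the smallest p of the structural RNAs, had 33.8 ± 9.09 CPM in E797R and 47.2 ± 10.5 CPM in WT (adjusted p = 0.85). The 13 mitochondrial mRNAs summed to 26819 to 34134 CPM in E797R and 28037 to 34600 CPM in WT (median −0.05), with MT-ND4L at 96.2 ± 21.5 CPM in E797R and 73.7 ± 18.4 CPM in WT. Median differences also varied with level. Over 5 equal bins of genes from low to high expression they were 0.15, 0.08, 0.01, −0.02 and −0.04, and of the 8 called genes 5 were in the highest bin and 3 in the one below it. The part of RNA quality and level in the calls was not tested.

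The 12 listed genes of 293 cells were all detected, with 1 of them under 1 CPM, and summed to 1006 to 1166 CPM in E797R and 1077 to 1361 CPM in WT (median 0.04; VIM 496 ± 52.1 CPM in E797R and 592 ± 109 CPM in WT). Of 14 neural genes, some of which 293 cells express, 3 were at 0 in all 6 libraries (median −0.09 over 9 tested; sums 261 to 493 CPM in E797R and 274 to 410 in WT; INA 33.6 ± 1.83 CPM in E797R and 42.9 ± 8.45 in WT). Of 10 fibroblast genes 2 were at 0 (median 0.04 over 5 tested; sums 61.5 to 72.7 CPM in E797R and 64.5 to 69.5 in WT; FBN1 44.4 ± 2.31 CPM in E797R and 46.7 ± 1.34 in WT). Of 10 blood cell genes 4 were at 0 and all averaged under 1 CPM, with sums of 1.51 to 2.01 CPM in E797R and 1.33 to 1.76 CPM in WT, and HBA1, the one tested, had a log2 difference of 0.23. None of the marker genes was called.

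The lines were also compared without knockdown of endogenous UPF1, where UPF1 RNA in both was still far above that of CLIP cells. Under siNT 0 genes were higher and 3 lower in E797R (0.018% of 16697 called; 481 had an unadjusted p under 0.05). They were UPF3B, NGRN and MED10, a subunit of the Mediator complex. MED10 (chromosome 5, 6371881 to 6378594, minus strand) had 18.4, 17.6 and 16.04 CPM in E797R under siNT, against 22.0, 26.7 and 28.7 CPM in WT (log2 difference −0.58, SE 0.11, adjusted p = 0.0401). Under siUPF1 it had 15.2, 17.8 and 15.3 CPM in E797R, against 21.1, 23.8 and 24.6 CPM in WT (−0.53, SE 0.11, adjusted p = 0.0576), and it rose in CLIP cells (0.77, adjusted p = 1.89e-07). The E797R libraries lay below the WT libraries for MED10 under both siRNAs. With the block the siNT count was 2 higher and 5 lower (0.0419% called), and leaving out any 1 of the 6 siNT libraries brought it to 0 or 1. The order of the counts under siUPF1 and siNT turned with the fit: with the block over only the 6 libraries of each comparison, 38 genes were called under siUPF1 and 234 under siNT.

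The direct test of whether the difference between E797R and WT itself differed between siUPF1 and siNT called 0 genes, by edgeR with and without the block and by DESeq2. With no filter on low counts it called 18. At an unadjusted p under 0.05 edgeR gave 273 genes, and 551 with the block. The estimates for the 8 genes ran from −0.69 for DDX49 to −0.09 for UPF3B, and all had the sign of the difference under siUPF1. The adjusted p of 7 of them was 1 and that of C1orf198 was 0.955. TMEM51, outside the 8, had the smallest p of this test, with −1.20 (SE 0.25, unadjusted p = 2.17e-05, adjusted p = 0.362, or 0.0892 with the block). Within the error of 3 replicates per group, the siUPF1 calls were therefore not shown to depend on the knockdown.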

How the data were processed

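Per the submitters' processing notes, the authors used cutadapt, STAR, RSEM and DESeq2 with the hg38 build; order, roles and versions are not stated there. The deposited values were RSEM expected counts for 58870 genes in 48 libraries of ribosomal RNA-depleted RNA, and 9.16% were not whole numbers. The sources used here do not give the annotation release or strand setting, so overlapping, antisense and near-identical genes cannot be fully told apart.

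Expected counts were rounded. Genes were kept by edgeR's filterByExpr (minimum count 10, 16 groups), which left 16697. All 48 libraries entered one 16-group robust quasi-likelihood model (edgeR 4.0.16, R 4.3.3, TMM), fitted across all genes with two-sided tests and Benjamini-Hochberg adjustment over the genes of a contrast. Calls required an adjusted p under 0.05. All adjusted p-values in the text are from this model unless another is named. They rest on a spread among replicate libraries that was estimated over all 16 groups and shared in part across genes. They do not cover variation between independent lines of the same construct. Levels are CPM on TMM-scaled library sizes, as mean ± SD, and set means use log2 CPM with a prior count of 2. Library totals of 6016999 to 14551820 limit precision mostly for genes of a few CPM. The script was checked on simulated counts.

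Same-numbered E797R and WT libraries deviated together from their group means, with correlations across genes of 0.175, 0.232 and 0.377 under siUPF1 and 0.156, 0.360 and 0.459 under siNT. The labels do not say what a number marks. The main fit, the UPF1 permutation test and the spreads of the gene sets did not pair the libraries. A fit with the replicate number as a block was therefore run beside the main fit. Results with the replicate block stand beside the unblocked ones where they changed a call or moved a count by over 1.5 times, for example 80 genes in place of 8.

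Positions and types are from GENCODE 29, matched by Ensembl ID for 16667 genes, and lists were matched by current or older symbol. Genes named were UPF1, all called genes of the comparison whose libraries did not overlap, in each of 25 lists the called members or the one with the smallest p, the genes called under siNT, and the 5 most raised and 5 most lowered by siUPF1 in CLIP. Outside that rule, and with their values known, UPF3A, UPF2, SMG1, GADD45A, ZFAS1 and genes called with the block alone were named. The members and lists were chosen with earlier results of these data known. Alternatives were RLE size factors, DESeq2 1.42.0, no filter, unrounded counts, only the groups compared, the replicate block, other fold limits for the sets and leaving out each library.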

Additional observations from a re-analysis of the deposited data

How the results depend on the processing

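The count of genes called between E797R and WT under siUPF1, 8, was 25 with DESeq2 (1 higher and 24 lower), 40 with no filter on low counts (18 higher and 22 lower), and 0 with only the 6 libraries in the fit, where 502 had an unadjusted p under 0.05. With the replicate block it was 80 over all libraries and 38 over the 6, and leaving out 1 library gave 4 to 18. All 8 genes remained called with RLE size factors, DESeq2, unrounded counts and the block, 6 remained without the filter (YIPF2 and ALDH1A2 did not), and every sign was kept. The siNT count of 3 was 33 with no filter, 0 over the 6 libraries alone (275 at an unadjusted p under 0.05), 7 with the block, 234 with the block over the 6, and 0 to 1 with 1 library left out. The count of 0 for the difference of knockdown effects was 18 with no filter and 0 in the other alternatives. The count against CLIP, 3085, was 5188 with the block and 2320 to 2606 with 1 library left out. Chosen after the data were seen, the block also moved the counts of E797R against the other mutants under siUPF1, to 94 with the block for IR-ER (20 without), 245 for I757R (43), 605 for FE-ER (146), 1605 for F192E (567) and 4669 for LECY (2642), and that of the CLIP knockdown to 7619 (5622). The cause was not tested. The UPF1 difference stayed uncalled (−0.13 to −0.01 with 1 library left out), and the medians over the raised genes (−0.04 to 0.04) and lowered genes (0.00 to 0.09) moved by less than the spread of the lines in all alternatives. The 3 replicates per group and totals of 6016999 to 9579307 counts limit what could be called: genes of a few CPM varied most between replicates, and a gene that was not called is not shown to be equal in the lines.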
